A study of Mus musculus with 4 samples.

Results

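The linker and core histone genes were examined in CD45+ cells of MC38 tumours from wild-type mice (WT) and knockout mice (KO), with 2 libraries per genotype. Members were taken by symbol: every gene whose symbol begins with H1f, H2ac, H2bc, H3c or H4c followed by a digit. The rule found 69 of the 22620 genes in the deposited gene tables: 11 linker histone H1 genes, 17 H2A, 17 H2B, 12 H3 and 12 H4 genes. MC38 is a mouse colon carcinoma line. Per the labels' protocols, tumours were digested with enzymes, CD45+ cells were drawn out on magnetic beads, and single-cell RNA was captured by its 3′ end on the 10x Genomics platform. Both groups carried MC38 tumours, and the labels name no other treatment for either. The strain, age and sex of the mice, the knockout allele, and whether a library came from 1 mouse or from pooled mice are not given in the sources used here. P-values therefore measure only the spread between libraries, which may be technical.

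Core histones H2A, H2B, H3 and H4 form the protein spool of the nucleosome, and H1 linker histones bind the DNA where it enters and leaves that spool. Most core histone genes, and the replication-dependent H1 genes, are transcribed mainly in S phase, when new DNA has to be packaged. Their mRNAs as a rule end in a conserved stem-loop bound by SLBP and carry no poly(A) tail. H1f0 and H1f10 are replication-independent linker histones with polyadenylated mRNAs, and H1f0 is known for its accumulation in cells that leave the cycle or differentiate. The 3′ kit primes on poly(A) sequence, so molecules of a replication-dependent gene enter these counts where a transcript carries or contains such a stretch. A count here is therefore a count of captured molecules and not of all histone mRNA. Because each molecule is counted at its 3′ end, counts were not scaled by transcript length.

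The stem-loop is shown for 8 members because the results below divide genes that end close after it from genes whose annotated transcript runs on. The form searched was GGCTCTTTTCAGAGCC, the inverted repeat with a stem of 6 bases and a loop of 4 found in more members' transcripts than any other (24), with up to 3 mismatches, on the sense strand of GENCODE transcripts (GRCm38, called mm10 in the labels). Capitals mark its 16 bases, read 5′ to 3′ on the transcript.
H3c3, chr13:23745040-23745069, minus strand: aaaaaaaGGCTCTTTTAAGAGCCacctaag
H2ac4, chr13:23751565-23751594, plus strand: aaacaaaGGCTCTTTTCAGAGCCacccaca
H2ac24, chr13:21833026-21833051, minus strand: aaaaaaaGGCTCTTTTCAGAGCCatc
H2ac8, chr13:23570661-23570690, minus strand: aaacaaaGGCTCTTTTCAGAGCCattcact
H4c4, chr13:23581943-23581972, plus strand: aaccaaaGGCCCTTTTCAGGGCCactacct
H1f2, chr13:23739505-23739534, plus strand: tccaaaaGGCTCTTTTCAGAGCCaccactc
H1f4, chr13:23621775-23621804, minus strand: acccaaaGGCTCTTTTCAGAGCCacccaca
H3c14, chr3:96247320-96247349, plus strand: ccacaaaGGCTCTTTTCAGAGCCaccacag
A match was found in 42 of the 69 members, 24 of them without a mismatch, against 1.77% of 58797 protein-coding transcripts. The form was chosen from the members, and each member counts by its best transcript, so the 2 figures describe and do not test an excess. In 22 of the 42 at most 100 bases followed the match, as in H3c3, H2ac4 and H2ac24. In the other 20 the annotated transcript ran on for over 100 bases, by 840 bases in H1f2, by 1153 bases in H1f4 and by 1167 bases in H3c14. No match was found in H1f0, H1f1, H1f5, H1f10 or H2bc4, which says only that these letters are not in the annotated transcript.

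Promoters from RefSeq (GRCm38.p6, 250 bases before to 50 after the start) were matched for 62 of the 69 members. CCAAT, on either strand, was present in 82.3% of the 62 and in 37.4% of all 32851 promoters. TATAAA was present in 54.8% against 13.6%, and AAACACA, the element known from H1 promoters, in 14.5% against 7.18%. All 3 were searched on both strands, and a match of TATAAA can share bases with one of AAACACA. The promoters of H1f5, H1f2 and H1f0 are shown because these genes behaved differently across the cell cycle. Capitals mark the 3 motifs.
H1f5 promoter, chr13:21780576-21780875, minus strand: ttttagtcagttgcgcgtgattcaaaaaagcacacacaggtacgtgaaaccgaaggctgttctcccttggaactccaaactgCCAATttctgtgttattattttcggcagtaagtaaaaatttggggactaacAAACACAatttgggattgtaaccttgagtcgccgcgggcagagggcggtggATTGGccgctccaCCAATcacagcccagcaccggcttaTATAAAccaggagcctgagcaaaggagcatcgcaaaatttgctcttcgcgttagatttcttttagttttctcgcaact
H1f2 promoter, chr13:23738557-23738856, plus strand: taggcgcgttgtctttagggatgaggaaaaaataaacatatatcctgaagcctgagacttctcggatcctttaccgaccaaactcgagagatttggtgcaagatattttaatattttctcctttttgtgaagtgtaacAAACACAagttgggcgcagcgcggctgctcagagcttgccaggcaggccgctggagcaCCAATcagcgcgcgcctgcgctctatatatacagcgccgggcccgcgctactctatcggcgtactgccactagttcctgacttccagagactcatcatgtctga
H1f0 promoter, chr15:79027962-79028261, plus strand: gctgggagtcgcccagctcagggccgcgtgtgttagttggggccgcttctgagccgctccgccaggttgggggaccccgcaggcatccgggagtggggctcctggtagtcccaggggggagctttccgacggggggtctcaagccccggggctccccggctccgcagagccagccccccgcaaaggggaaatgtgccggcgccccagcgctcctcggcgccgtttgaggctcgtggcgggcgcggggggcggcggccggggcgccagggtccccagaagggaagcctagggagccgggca
H1f5 held all 3 motifs, H1f2 held CCAAT and AAACACA, and H1f0 held none of the 3 in this window. The H1f0 window follows the RefSeq start and ends at 79028261, before the GENCODE start of H1f0 at 79028450. Bases next to the GENCODE start were therefore not searched for H1f0, unlike for H1f5 and H1f2. Of the 69 genes, 54 lie within 2.22 Mb of chromosome 13 and 10 on chromosome 3, and 5 lie on chromosomes 6, 11 and 15.

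After filters, 8664 to 17207 cells per library remained, with a median of 6052 to 12133 UMIs per cell (unique molecular identifiers, each standing for 1 captured molecule) and with both KO medians below both WT medians. Libraries shared 22 to 51 barcodes per pair. Cell types were set by marker genes that include no histone and no cell cycle gene, 3188 to 5876 cells per library passed no gate, and 54 to 178 that passed gates of several lineages were left out. Macrophage-gated cells (C1qa, C1qb and C1qc) numbered 3533 and 4223 in WT and 7093 and 3619 in KO, and all 8 macrophage markers on the list were detected in them in every library. Counts were summed per library and cell type, since cells of 1 library are not replicates.

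The members together held 492396 UMIs, 0.138% to 0.146% of all UMIs in the WT libraries and 0.0735% to 0.0997% in the KO libraries. H1 genes gave 43.7% of these UMIs, H2A genes 27.9%, H2B genes 16.4%, H3 genes 5.04% and H4 genes 6.91%. The 7 genes with most UMIs (H2ac24, H1f2, H2bc4, H1f0, H1f5, H1f4 and H2ac8) made up 75.2%. At the other end, 10 members had 1 to 99 UMIs in all, and H1f7, a testis linker histone, and H2ac1 had none. Many core histone genes code for near-identical proteins and can be alike in sequence. Reads that match several copies may be lost or misassigned, which was not tested, so counts of single members are uncertain.

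The first question was which members follow the cell cycle in these cells. Mki67, which encodes the proliferation antigen Ki-67, was used to split cells into those with at least 1 Mki67 UMI and those with none, and the split was compared within library. In macrophage-gated cells 48 of 55 tested members were higher in Mki67-positive cells and 1 was lower (edgeR quasi-likelihood test, Benjamini-Hochberg adjusted p under 0.05 over all genes). Over all 11445 genes tested, 20.6% were higher and 25.4% lower. The median log2 difference was 2.43 over the members and -0.04 over all genes.

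Levels are given as CPM, the UMIs of a gene per 1000000 UMIs of the same sum of cells. H3c3, an H3 gene, had 62.6, 60.1, 36.9 and 45.4 CPM in Mki67-positive macrophage-gated cells of WT 1, WT 2, KO 1 and KO 2. In Mki67-negative cells of the same libraries it had 1.10, 1.16, 0.87 and 1.35. The positive sums exceeded the negative ones in all 4 libraries (log2 difference 5.40, SE 0.084, adjusted p = 8.8e-14, edgeR). H1f5, a replication-dependent linker histone, had 331, 342, 157 and 217 in positive cells and 9.36, 10.7, 6.99 and 7.75 in negative cells (log2 difference 4.78). H2ac4 differed by 4.54, H1f1 by 4.52, H2ac24 by 4.25 and H2ac8 by 4.02 on the log2 scale, all with edgeR adjusted p under the threshold. H1f3 and H1f4 rose less, by 1.99 and 1.97.

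Other members rose little with Mki67, did not differ or fell. H1f2 had 191, 182, 110 and 120 CPM in positive cells and 173, 170, 117 and 124 in negative cells, with the order of the 2 classes reversed between genotypes (log2 difference -0.05, edgeR adjusted p = 0.21). H2bc4 showed the same lack of a common direction, higher in the positive cells of both WT libraries and lower in those of both KO libraries. H1f0 rose by 0.43, a difference that passed the test, and was higher in the positive cells of all 4 libraries. H4c9 rose by 0.45, a call lost without WT replicate 2 or KO replicate 1, with total counts, with no filter and after thinning. H3c14 was the 1 member that fell, by 0.94 on the log2 scale, from 4.44 to 7.45 in negative cells to 2.33 to 4.24 in positive cells.

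Members whose annotated transcript ended at most 100 bases after the stem-loop had a median log2 difference of 3.0 between the Mki67 classes, with all 18 tested called higher. Those with a longer stretch after it had a median of 1.37, with 14 of 18 called higher and 1 lower, and those with no match had a median of 2.43, with 16 of 19 called higher. The ranges overlapped widely, from 0.62 to 5.52 in the first set and from -0.94 to 4.02 in the second. H3c3 is in the first set and H3c14 in the second, as printed above.

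Adding Rrm2, the S phase subunit of ribonucleotide reductase, narrowed the cycling class. In macrophage-gated cells with UMIs of both Mki67 and Rrm2 the members summed to 4512 and 3849 CPM in WT and to 2372 and 3054 in KO. With Mki67 alone they summed to 1246 and 1154 in WT and to 682 and 645 in KO. With neither gene they summed to 649 and 632 in WT and to 461 and 506 in KO. With Rrm2 alone, in 83 to 147 cells per library, they summed to 715 and 573 in WT and to 393 and 433 in KO. That was below the sum with neither gene in every library but WT 1. In each of these classes both KO libraries were below both WT libraries. By the Mki67 split alone this was so in 55.5% of all tested genes in positive cells and in 45.4% in negative cells. The share of Mki67-positive cells that also had an Rrm2 UMI was 36.4% and 38.0% in WT and 29.9% and 39.5% in KO. These shares depend on depth: median UMIs of cells with both genes were 19816.5 and 20857 in WT and 19267 and 25708 in KO, and the part of either in the histone level was not tested.

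**Figure D1:**
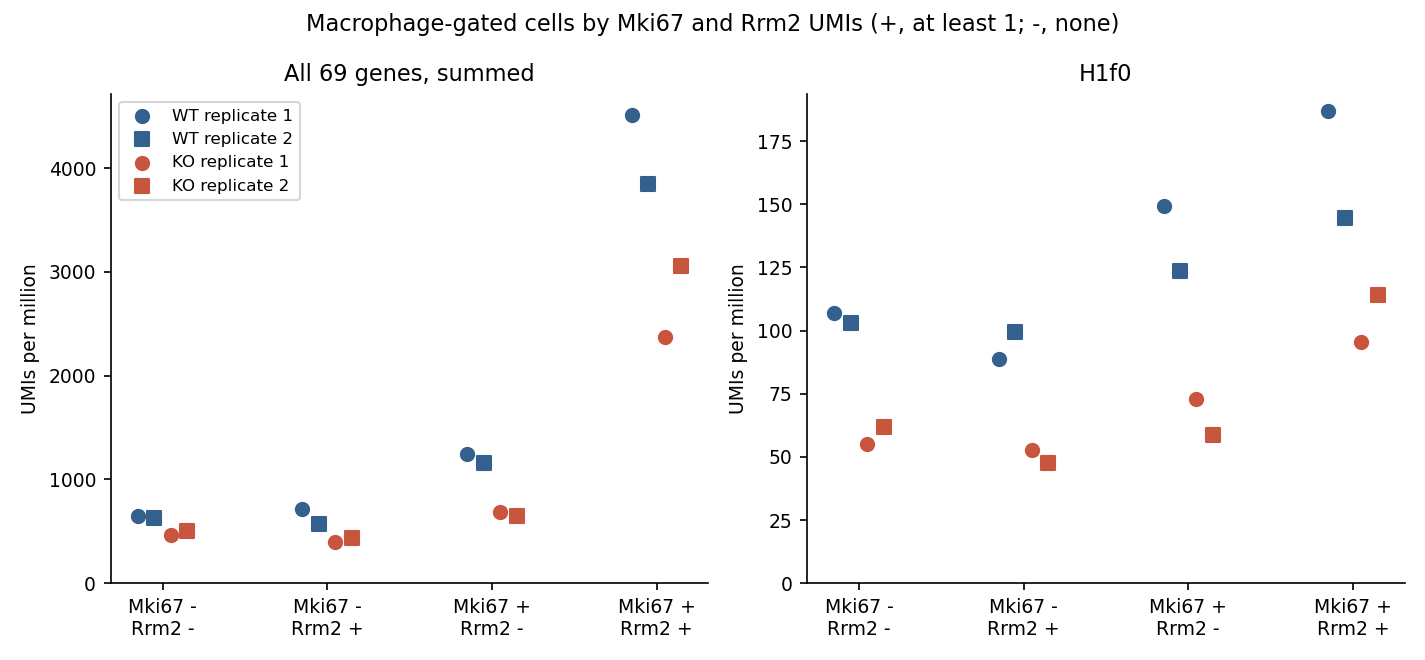
Macrophage-gated cells split by whether a cell holds a UMI of Mki67 and of Rrm2, with CPM on the vertical axis for the 69 genes summed (left) and for H1f0 (right); each point is 1 library. The sum reaches 2372 to 4512 in cells with both genes, and both KO libraries lie below both WT libraries in every class of either panel.

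The same split in monocyte-gated cells, which carried Ly6c2, Ccr2 and related genes and little C1q, gave 14 of 26 tested members called higher and none lower, against 4.52% of all genes called higher and 2.94% lower. H3c3 had 59.98, 65.1, 14.5 and 9.85 CPM in Mki67-positive cells and 1.56 or less in negative cells (log2 difference 5.10, edgeR adjusted p = 0.0092). Of the 14 calls 6 were lost without 1 of the libraries, and 5 members were called without WT replicate 1. In T cells without a Cd8a or Cd8b1 UMI, 17 of 18 tested members were called higher and none lower, against 12.2% and 9.95% of all genes.

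The second question was whether histone levels differed between genotypes. In macrophage-gated cells the 69 genes summed to 1361 and 1260 CPM in the WT libraries and to 709 and 950 in the KO libraries, 1.58 times higher in WT by the means (1310 ± 71.7 and 830 ± 171, SD, n = 2 each). All 5 families had lower KO than WT means. H1 genes summed to 553 ± 2.80 in WT and 331 ± 51.3 in KO, and H2B genes to 224 ± 20.6 and 147 ± 2.86. H2A genes stood at 374 ± 37.1 and 250 ± 103, H3 genes at 72.0 ± 1.36 and 43.3 ± 9.49, and H4 genes at 86.3 ± 9.85 and 57.8 ± 3.63. Of the 69 members 59 passed the filter on low counts, which needs counts in at least 2 libraries and can be met by WT alone. Of the 59, 17 fell in KO while none rose. Over all 12261 genes tested, 3.99% fell and 6.57% rose. The median log2 difference was -0.70 over the 59 members and -0.01 over all genes.

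H1f0 had 127 and 114 CPM in WT and 62.6 and 69.7 in KO. The groups did not overlap (log2 difference -0.70, SE 0.10, edgeR adjusted p = 0.0067). H1f2 had 179 and 174 against 115 and 122, again without overlap (log2 difference -0.42, SE 0.095, edgeR adjusted p = 0.033). H1f3 had 30.6 and 27.2 against 12.6 and 16.8 (log2 difference -0.81), and H1f1 had 12.8 and 12.6 against 4.72 and 6.46 (log2 difference -1.03). H1f10, a replication-independent linker histone at low level, had 1.88 and 2.10 against 0.59 and 0.98 (log2 difference -1.21, edgeR adjusted p = 0.047). H1f5 had 120 and 128 against 48.5 and 79.7 and H1f4 83.9 and 93.2 against 50.9 and 71.7. Neither of the last pair passed the test (edgeR adjusted p = 0.14 and 0.24), and their groups did not overlap. Lack of overlap was common: both KO libraries lay under both WT libraries in 52% of all 12261 genes tested.

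Of the H2B genes 7 of 15 tested fell. H2bc14 had 7.06 and 4.74 CPM in WT and 1.83 and 2.11 in KO (log2 difference -1.42, SE 0.21, edgeR adjusted p = 0.0080). H2bc3 fell by 1.25, H2bc9 by 1.13, H2bc18 by 0.99, H2bc11 by 0.94 and H2bc21 by 0.92 on the log2 scale. H2bc22 fell by 1.75, with only 17 to 61 UMIs per library. H2bc4, the H2B gene with most UMIs, had 175 and 157 in WT and 121 and 118 in KO and missed the threshold (log2 difference -0.31, edgeR adjusted p = 0.072).

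None of the 14 tested H2A genes passed in edgeR, where 7 were lower at an unadjusted p under 0.05, and DESeq2 called 2 lower. H2ac24, the member with most UMIs, had 219 and 181 in WT and 91.2 and 189 in KO, so KO 2 lay inside the WT range (log2 difference -0.35, SE 0.40, edgeR adjusted p = 0.64). Among H3 genes H3c4 fell by 1.02 and H3c8 by 1.51. Among H4 genes H4c4 had 34.4 and 29.4 in WT and 14.8 and 19.4 in KO and fell by 0.74 (edgeR adjusted p = 0.021). H4c12 and H4c17 were also called, from 0 to 23 UMIs per library, and both lost the call with DESeq2. By transcript end, 6 of 21 tested members that end soon after the stem-loop fell, 5 of 18 that run on and 6 of 20 without a match.

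**Figure D2:**
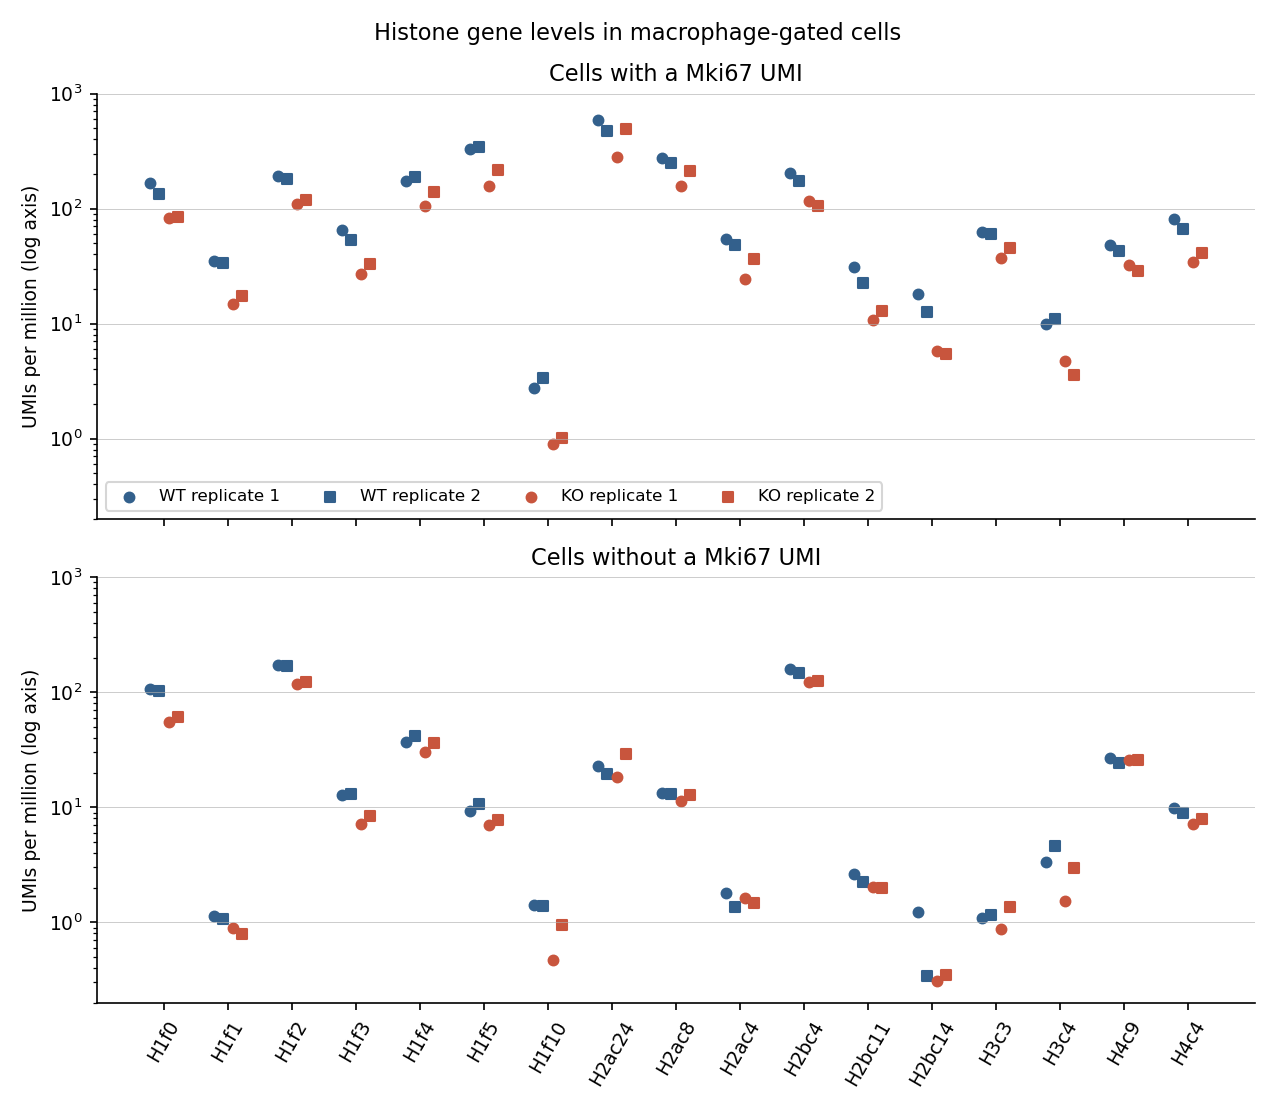
CPM (log axis) of 17 histone genes in macrophage-gated cells with (top) and without (bottom) a Mki67 UMI; each point is 1 library, circles replicate 1 and squares replicate 2. H1f0 lies lower in both KO libraries in both panels (133 to 166 in WT and 82.0 to 85.3 in KO among Mki67-positive cells), whereas H2ac24 of KO 2 lies among the WT libraries in the top panel.

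Both KO libraries were below both WT libraries in 55 of the 59 members, by CPM, and this was so in 52% of all tested genes. With total counts in place of the trimmed mean of M values, the median of all genes moved from -0.01 to -0.17. On that scale 30 members fell, with a median of -0.86, and 1275 of all genes fell and 558 rose, against 489 and 806 before. The call rested on single libraries: 3 members fell without WT replicate 1, 8 without WT replicate 2, 10 without KO replicate 1 and 35 without KO replicate 2, always with a negative median. Of the 17 members, H1f0 and H2bc14 were called in all 4 of these fits. Shares over all genes are not given for these fits or the next one. Their counts are therefore not read as particular to the members. Without barcodes of over 3 times their library's median UMIs, 39 members fell. That cut stood at 29716.5 and 36399 UMIs in WT and at 18156 and 24924 in KO. Cells with both Mki67 and Rrm2 UMIs had medians above it in KO (19267 and 25708) and below it in WT (19816.5 and 20857). It therefore took out a larger part of these cells in KO, and the count of 39 is not a like comparison. Median UMIs per macrophage-gated cell were 12029 and 13598 in WT and 10005 and 15578 in KO, so the KO values lay on either side of the WT values. Summed T cell marker levels (5 of 5 genes detected) were 1.67 and 5.58 CPM in WT and 23.2 and 15.04 in KO. Summed monocyte markers (7 of 7 detected) were 1649 and 876 in WT and 740 and 677 in KO. The gate is a range of C1q levels: 1048 to 1878 of the gated cells per library lay within a factor of 2 above its lower limit of 40 C1q UMIs per 10000. The part of marker levels and of the gate in the result was not tested.

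The third question was how the share of cycling cells differed, since a lower sum can stem from fewer cycling cells or from less histone RNA per cell. Mki67-positive cells made up 26.9% (95% exact binomial interval 25.4% to 28.4%) and 28.8% (27.4% to 30.2%) of macrophage-gated cells in WT and 20.5% (19.6% to 21.5%) and 25.6% (24.2% to 27.1%) in KO. Such intervals cover counting error only. After every cell was thinned to 3000 UMIs, which left out 186 to 661 shallower cells per library, the shares were 16.4% and 16.2% in WT and 10.3% and 12.5% in KO. The WT mean was 1.43 times the KO mean after thinning, and the groups did not overlap (exact permutation test, two-sided, p = 0.33, the smallest that 2 against 2 libraries can give). Neutrophil-gated cells gave 1.91% to 4.48% with a Mki67 UMI at median depths of 1484 to 1743.5 UMIs. Mature neutrophils do not divide, and the source of these UMIs was not tested. These depths are under 3000 UMIs, so the values give no floor for the shares above.

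Cycling share and summed histone level were then set side by side over 5 cell types. CD8 T cells of WT held most: 30.4% and 25.9% Mki67-positive cells after thinning in WT, with 2516 and 2309 CPM, and 13.3% and 18.5% in KO, with 1222 and 1671. The share in WT 1 rests on 23 cells after thinning. Monocyte-gated cells held least in KO, with 3.76% and 2.86% and 496 and 539 CPM, against 9.65% and 7.24% and 1039 and 876 in WT. Over the 20 combinations of 5 types and 4 libraries Pearson's r was 0.93 and Spearman's rho 0.93. Neutrophil-gated cells are not among the 5 types, since 2 to 17 of them per library reached 3000 UMIs. Unthinned, 1.91% to 4.48% of them had a Mki67 UMI, and their summed level was 815 to 1216 CPM, above that of KO monocyte-gated cells. The correlation is a description, since points of 1 library share depth and free RNA.

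**Figure D3:**
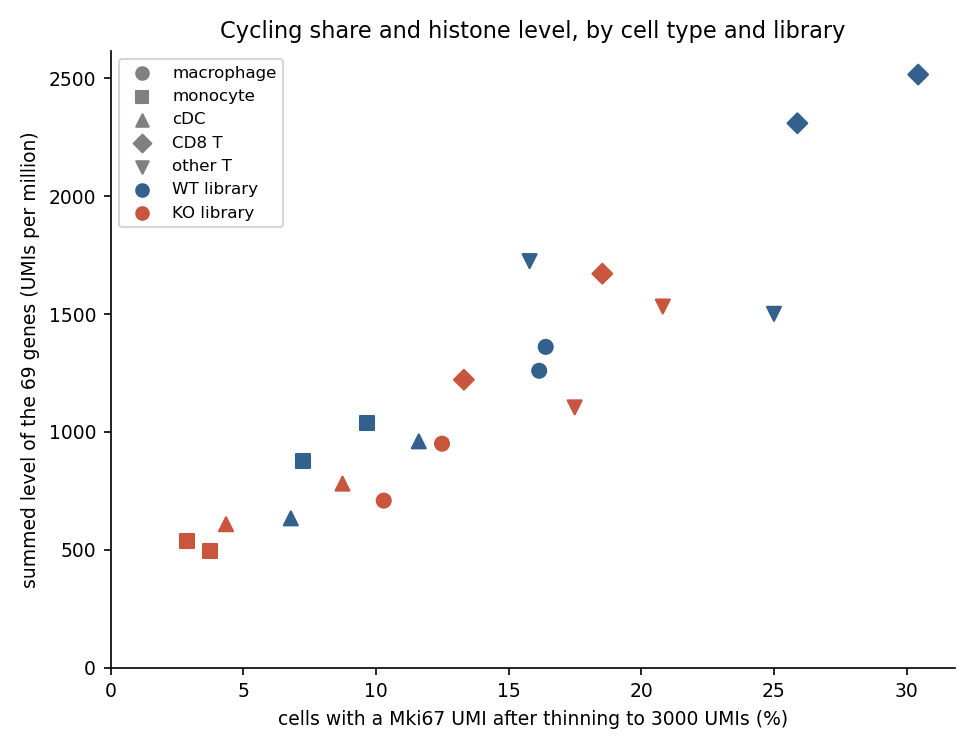
Percentage of cells with a Mki67 UMI after thinning to 3000 UMIs (horizontal) against the summed level of the 69 genes in CPM (vertical); each point is 1 cell type in 1 library, shaped by type and coloured by genotype. Points run from KO monocyte-gated cells (2.86% and 539) to WT CD8 T cells (30.4% and 2516).

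The comparison was then made within each Mki67 class. The positive class was not matched between genotypes for Mki67 itself, which had 435 and 380 CPM there in WT and 285 and 315 in KO. In Mki67-positive macrophage-gated cells the members summed to 2711 and 2403 CPM in WT and to 1360 and 1804 in KO. Of 57 tested members 31 fell and none rose, against 5.32% of all 11402 genes falling and 9.24% rising, and the median log2 difference was -0.70 against -0.02 over all genes. The 31 include 16 of the 17 members called without the split. By family, 6 of 7 H1, 3 of 13 H2A, 12 of 15 H2B, 5 of 11 H3 and 5 of 11 H4 genes fell. Without KO replicate 1, 11 members fell, H1f0 no longer among them (edgeR adjusted p = 0.052). Thinned to 3000 UMIs, 14 of 38 tested members fell. H1f5 fell by 0.66 on the log2 scale (edgeR adjusted p = 0.025), from 331 and 342 to 157 and 217 CPM, and kept this call only when KO replicate 2 was the library left out. H1f1 had 35.0 and 33.4 in WT and 14.7 and 17.3 in KO and fell by 0.90 (edgeR adjusted p = 0.0015). H2bc4 had 205 and 174 against 116 and 106 and fell by 0.58, and H4c9 had 47.7 and 43.1 against 32.2 and 28.4 and fell by 0.39. H2bc4 lost the call without KO replicate 2, and H4c9 lost it without WT replicate 1, KO replicate 1 or KO replicate 2. H2ac24, H2ac8, H3c3 and H1f4 had log2 differences of -0.27, -0.32, -0.39 and -0.37 and did not pass.

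In Mki67-negative macrophage-gated cells only H1f0 and H1f3 of 49 tested members fell, and none rose, against 3.18% of 11821 genes falling and 5.35% rising. The median log2 difference of the 49 was -0.26. H1f0 had 106 and 103 CPM in WT and 55.2 and 61.5 in KO (log2 difference -0.72, SE 0.10, edgeR adjusted p = 0.0060), beside -0.64 in Mki67-positive cells, and it kept its call whichever library was left out. H1f3 had 12.75 and 12.98 against 7.13 and 8.34 (log2 difference -0.62, edgeR adjusted p = 0.028) and lost the call without KO replicate 1. H1f2 had 173 and 170 against 117 and 124 and stood at the threshold (log2 difference -0.39, edgeR adjusted p = 0.050). H2ac24 had 22.6 and 19.6 against 18.3 and 29.0 and H4c9 26.8 and 24.5 against 25.5 and 25.9, both with overlapping groups.

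The difference between the classes was tested as an interaction. Of 58 tested members 15 had a more negative KO against WT difference in Mki67-positive than in Mki67-negative cells and none a less negative one, against 0.654% of 11774 genes in that direction and 5.46% in the other (77 and 643 genes, or 160 and 182 when scaled by total counts, where 14 members were called). H4c8 had the interaction of -1.02 (edgeR adjusted p = 1.4e-05), and H2ac24 that of -0.54 (5.7e-07). H1f0 had 0.13 (edgeR adjusted p = 0.61) and H1f2 -0.09 (0.41). Of the 15 calls, H2bc4 and H4c9 remained after thinning to 3000 UMIs, 8 remained without WT replicate 1 and 6 without KO replicate 1.

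**Figure D4:**
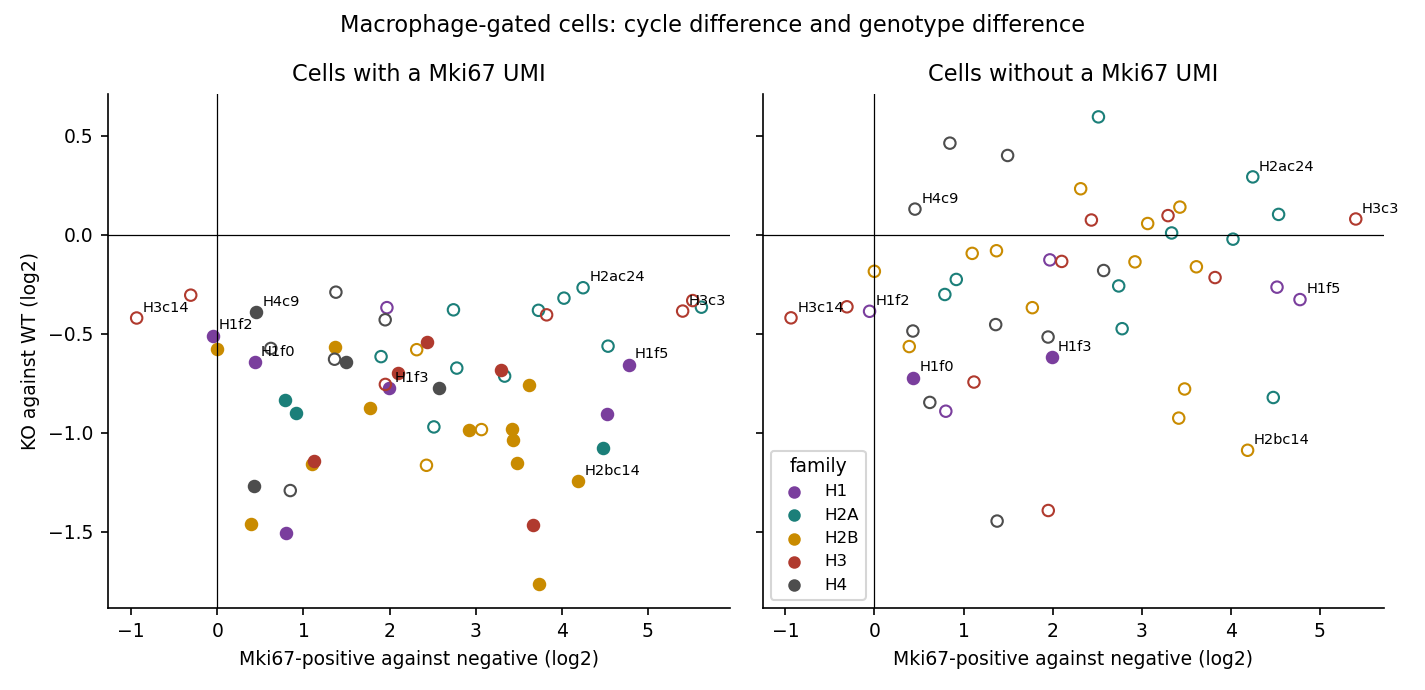
Log2 difference between Mki67-positive and negative macrophage-gated cells (horizontal) against the KO against WT log2 difference (vertical) in Mki67-positive (left) and Mki67-negative cells (right); each point is 1 member, coloured by family, filled where the KO against WT test passed. Members not tested between Mki67 classes are not drawn. All filled points on the left lie below 0, and H1f0 and H1f3 are the 2 filled points on the right.

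Genes that work with histones were described from lists. In macrophage-gated cells 3.99% of all 12261 genes fell and 6.57% rose. Of 23 S phase genes, such as the Mcm helicase subunits, 3 fell in macrophage-gated KO cells (Mcm2 by 0.49, Mcm5 by 0.47 and Mcm4 by 0.39 on the log2 scale) and none rose, with a median of -0.25. Within Mki67-negative cells 3 of these 23 genes fell and none rose, with a median of -0.33. Over all genes 3.18% fell and 5.35% rose there. By the interaction, 3 S phase genes had a less negative difference in Mki67-positive cells and none a more negative one (median 0.21). Over all genes these shares were 5.46% and 0.654%. Within Mki67-positive cells 2 of the 23 fell (Mcm2 and Mcm5) with a median of -0.08, beside the members' median of -0.70 in the same cells. There 3 of 17 mitosis genes fell and none rose, with a median of -0.16. These cells were not matched for mitosis genes: Hmgb2 had 735 and 714 CPM in WT and 421 and 480 in KO. Of 17 mitosis genes 1 fell in macrophage-gated cells, Hmgb2, and the median was -0.36. Of 12 genes for transcription and 3′ processing of histone mRNA, 1 fell, Cstf2, a cleavage factor, and Slbp, which binds the stem-loop, had a log2 difference of -0.02 (edgeR adjusted p = 0.93). Of 18 histone chaperone and assembly genes 1 fell, the chromatin remodeller Hells. None of 9 replication-independent variant genes passed in macrophage-gated cells with edgeR or DESeq2. In edgeR 1 was lower at an unadjusted p under 0.05, and H3f3b had -0.03 and H2az1 -0.14. Within Mki67-positive cells 3 of 18 chaperone genes fell, and none of 8 variant genes passed in edgeR. Across the Mki67 split all 23 S phase genes and all 16 mitosis genes other than Mki67 itself rose, with medians of 2.15 and 4.47.

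In monocyte-gated cells 18 of 37 tested members fell in KO and none rose, against 7.84% of 10307 genes falling and 9.89% rising, with a median log2 difference of -0.92. The filter on low counts can be met by the 2 WT libraries alone, so members near 0 in KO were tested only where WT was higher. The calls were made on sums of both Mki67 classes. Among them, H2ac22 had 16.2 and 10.9 CPM in the Mki67-positive cells of WT and 3.63 and 0 in those of KO. In the far more numerous Mki67-negative cells it had 0.57 and 0 against 0 and 0.52. H2bc12 had 5.71 and 13.6 against 0 and 0 in positive cells and 0.57 and 0 against 0 and 0.35 in negative cells. H3c3 had 14.3 and 11.4 CPM in WT and 2.22 and 2.24 in KO (log2 difference -2.46, SE 0.26, edgeR adjusted p = 0.00021). H2ac4 fell by 2.18, H2ac8 by 1.78, H1f1 by 1.72, H1f5 by 1.65 and H2ac24 by 1.62 on the log2 scale. H1f0 had 116 and 104 against 61.7 and 83.1 and fell by 0.52. H1f4 had 80.5 and 89.0 against 78.9 and 95.5 and did not pass (log2 difference 0.13, edgeR adjusted p = 0.50). In the same cells 19 of 23 S phase genes and all 17 mitosis genes fell, with medians of -1.23 and -2.12. Of 18 chaperone genes 6 fell and 1 rose, and of 8 replication-independent variant genes 3 fell and 1 rose. None of 11 genes for transcription and 3′ processing of histone mRNA passed. Mki67 shares there were 15.03% and 10.1% in WT and 6.61% and 6.14% in KO, and median UMIs per cell 7913 and 6754 in WT and 5061 and 6216 in KO, whose part in the result was not tested. Of the 18 calls, 9 held whichever library was left out (H1f1, H1f3, H1f5, H2ac4, H2ac8, H2ac22, H2bc4, H2bc11 and H3c3), and 10 members were called without WT replicate 1.

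T cells and conventional dendritic cells gave few calls. In CD8 T cells H2ac8 and H2ac4 fell, 2 of 33 tested, against 0.0921% of 8689 genes falling and 0.472% rising, and WT 1 held 34 such cells. H2ac8 had 267 and 241 CPM in WT and 107 and 136 in KO (log2 difference -0.97, edgeR adjusted p = 0.037). In other T cells H1f0 alone of 25 fell, from 146 and 118 to 69.6 and 84.7 (log2 difference -0.75, edgeR adjusted p = 0.033), against 0.458% of 8517 genes falling and 1.08% rising. Of the lists, 2 of 8 replication-independent variant genes and 4 of 17 mitosis genes fell there, and none rose. In dendritic cells H1f10 alone of 17 fell, from 21.0 and 22.2 to 6.72 and 5.47 (log2 difference -1.77, edgeR adjusted p = 0.011), against 0.687% of 8301 genes falling and 1.53% rising. DESeq2 called none of the members in these 3 types, with 8, 1 and 2 lower at an unadjusted p under 0.05. In edgeR both CD8 T cell calls were lost without KO replicate 1, that of H2ac8 also without WT replicate 2, and the call of H1f0 in other T cells was lost without WT replicate 1 or KO replicate 1. In dendritic cells H1f10 kept its call whichever library was left out. Of 6 members tested in neutrophil-gated cells edgeR and DESeq2 called none, against 0.0962% of 3120 genes called lower and 0.481% higher in edgeR, and 1 lower and 1 higher had an unadjusted p under 0.05 in edgeR.

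**Figure D5:**
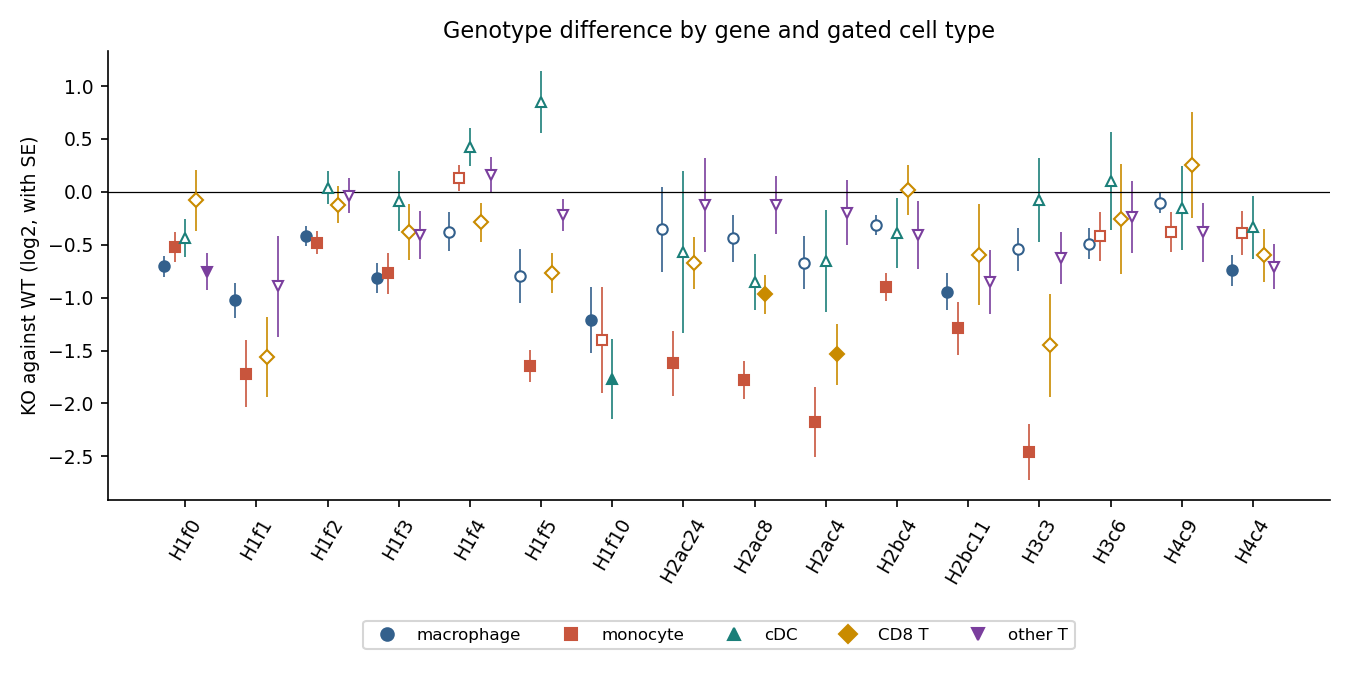
KO against WT log2 difference with its standard error for 16 histone genes in 5 gated cell types; filled symbols passed the test. Monocyte-gated cells give the lowest values for H3c3 (-2.46) and H2ac4 (-2.18), and H1f0 is filled in macrophage-gated, monocyte-gated and other T cells.

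Summed over all kept cells 9 of 60 tested members fell and none rose, against 1.44% of 13639 genes falling and 4.36% rising. These were H1f1, H1f2, H1f3, H2bc3, H2bc4, H2bc14, H2bc21, H3c4 and H4c4. None of them was called without WT replicate 1 or without WT replicate 2, where edgeR gave 22 and 30 members lower at an unadjusted p under 0.05. DESeq2 called 28 of the 60, and its share over all genes is not given here. T cells were a larger part of both KO libraries (CD8 T cells 6.64% and 5.07% of kept cells, against 0.39% and 1.28% in WT), so these sums mix cell types in unequal shares.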

How the data were processed

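The authors deposited raw counts of UMIs per gene and cell barcode for 4 libraries. Per the file headers Cell Ranger 5.0.0 wrote them, whereas the submitters' processing notes list Cell Ranger 5.0.1, Seurat 3.15 and mm10. Barcodes under 200 genes or over 20% mitochondrial UMIs were dropped. Cell types were set by summed marker UMIs, with limits chosen after marker levels were seen. Cells in gates of several lineages were left out, and no doublet caller was run. Counts were summed per library, type and Mki67 class and tested in R 4.3.3 with the robust quasi-likelihood test of edgeR 4.0.16 (TMM scaling, filterByExpr, Benjamini-Hochberg over all genes, threshold 0.05), and the steps were tested on simulated data. CPM values use the library totals of the class. DESeq2 1.42.0, total-count scaling, no filter, a replicate block, each library left out, other gates and thinning were alternatives, some added after seeing the data. Linker histones and the 15 core histones with most UMIs, and members that passed a test, could be named. Members and gene lists were chosen with earlier results of these data known. The targeted gene is not reported here.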

Additional observations from a re-analysis of the deposited data

Results flagged for a closer look

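In 15 members the KO against WT difference in macrophage-gated cells was more negative in Mki67-positive than in Mki67-negative cells, by the interaction term of the edgeR fit. The interaction was -1.4849 for H2ac11, -1.1985 for H2bc18, -1.0495 for H2bc8, -1.0225 for H4c8, -0.8596 for H2bc21 and -0.8175 for H2bc11 on the log2 scale. It was -0.6903 for H2ac4, -0.5934 for H3c6, -0.5564 for H4c4, -0.5355 for H2ac24 and -0.4785 for H4c9. The smallest were -0.3487 for H2bc4, -0.3188 for H1f5, -0.2779 for H2ac8 and -0.2151 for H1f4. H2ac24, H2bc4, H4c4, H4c8 and H4c9 kept the call whichever library was left out, and the other 10 lost it in at least 1 of these fits. Of these 5, H2bc4 and H4c9 also kept it after thinning to 3000 UMIs, whereas H2ac24, H4c4 and H4c8 lost it.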

How the results depend on the processing

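No called member changed direction with any alternative, but 2 medians over members did: in dendritic cells (-0.34) it was 0.07 without WT replicate 1, and in neutrophil-gated cells (0.11) it was -0.28 with no filter, -0.17 without WT replicate 2 and -0.70 without KO replicate 2. Members called higher in some alternatives only were H1f5 in dendritic cells (0.86 to 1.27 on the log2 scale, with no filter and without WT replicate 1 or KO replicate 1), H2ac24 in Mki67-negative macrophage-gated cells (0.61, without KO replicate 1) and H1f0 for the interaction (0.26, without WT replicate 1). With 2 libraries per genotype, 1 library often decided a count of members called lower. Most counts below come without their share over all genes, so they are not read as particular to the members. Leaving out each library in turn gave 3 to 35 in macrophage-gated cells (17 in the main analysis), 10 to 23 in monocyte-gated cells (18), 1 to 4 in dendritic cells (1), 0 to 3 in CD8 T cells (2), 0 to 3 in other T cells (1), 0 to 1 in neutrophil-gated cells (0) and 0 to 41 in all kept cells (9). It gave 1 to 6 in Mki67-negative macrophage-gated cells (2), 11 to 33 in positive ones (31), and 8 to 14 for the interaction (15). Between Mki67 classes it gave 44 to 48 members called higher in macrophage-gated cells (48), 5 to 20 in monocyte-gated cells (14) and 17 to 20 in other T cells (17). DESeq2 called 11 members in monocyte-gated cells, 0 in dendritic, 0 in CD8 T and 0 in other T cells, and 28 in all kept cells. With no filter on low counts the numbers were 2 in dendritic cells, 6 in CD8 T cells, 1 in neutrophil-gated cells and 17 in all kept cells, and between Mki67 classes 29 in monocyte-gated cells and 33 in other T cells. Total-count scaling gave 30 in macrophage-gated cells, 42 in Mki67-positive ones (where 678 genes rose and 2215 fell, against 1054 and 607) and 47 called higher between Mki67 classes (3176 genes higher and 1644 lower, against 2360 and 2902). Leaving out large barcodes gave 39 in macrophage-gated cells and 36 in all kept cells. That limit was lower in both KO libraries and took out a larger part of their macrophage-gated cells with both Mki67 and Rrm2 UMIs. Thinning to 3000 UMIs gave 14 in all kept cells, 1 in Mki67-negative and 14 in Mki67-positive macrophage-gated cells and 2 for the interaction, and between Mki67 classes 4 in monocyte-gated cells and 9 in other T cells. Thinning leaves fewer members to test. With any of Mki67, Top2a and Birc5 as the marker, 9 members were called in monocyte-gated cells. The cause of the other changes was not tested. Same-numbered libraries did not deviate together (correlation -0.02 over 11995 genes), so the numbers do not pair them. With a replicate block 9 members were called in macrophage-gated cells, 4 in CD8 T cells, 3 in other T cells and 0 in all kept cells, where 39 were lower at an unadjusted p under 0.05. The share of Mki67-positive macrophage-gated cells (KO minus WT -4.76 percentage points) stayed negative under each alternative run.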
